A study of Homo sapiens with 16 samples.

Results

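Ribosome biogenesis and RNA exosome genes were described as the 42 protein-coding genes, of 58735 genes in the count table, whose symbols start with RRP, EXOSC, UTP or NOP and a digit, or with POLR1 and a letter. The choice by name used no expression value. By role the 42 genes are 5 subunits of RNA polymerase I, 3 core proteins of small nucleolar ribonucleoproteins (snoRNPs), 17 proteins of the small-subunit processome and 40S maturation, 7 proteins of 60S assembly and 10 subunits of the RNA exosome (3 of its cap, 6 of its ring and the nuclease EXOSC10). They lie on 21 chromosomes, with at most 4 on one chromosome.

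The 16 libraries came from 4 established human breast cancer cell lines, 2 per group, each group being one line in one culture. The 8 groups are HCC1806 spheroids at day 10 after seeding, HCC1806 spheroids at day 20, HCC1806 monolayers, BT474 spheroids at day 10, BT474 spheroids at day 20, BT474 monolayers, CAL148 monolayers and ZR-75-30 monolayers. The design addresses how cells grown as spheroids differ from the same line grown flat. The labels give no drug and no genetic change for any group, and all cells had 10% fetal bovine serum. HCC1806 and ZR-75-30 were kept in RPMI and BT474 and CAL148 in DMEM, so line and medium cannot be told apart between HCC1806 and BT474. Groups were read from the sample titles, since another label gives monolayer growth even to the spheroid samples. HCC1806 and CAL148 are generally known as triple-negative lines and BT474 and ZR-75-30 as ERBB2-positive lines. Nothing in the labels ties the 2 replicates of a group to different cultures, so p-values measure only the spread between these samples.

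RNA polymerase I transcribes one long precursor of the ribosomal RNAs in the nucleolus. Box C/D and box H/ACA snoRNPs modify that precursor, the small-subunit processome folds and cuts the 18S part, other factors build the 60S particle, and the exosome trims and degrades RNA from its 3′ end. In mammalian cells many of these genes are known to be driven by the transcription factor MYC, which binds the E-box CACGTG, and their output is known to follow growth rate. In bulk RNA, fewer cells of a type and less RNA per cell cannot be told apart.

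The libraries held 29.7 M to 72.5 M counts each. Expression is given as CPM (depth-scaled counts with TMM factors), and 3 counts, taken as the floor, equal 0.0414 to 0.101 CPM, which covers counting error only. ERBB2, amplified in the ERBB2-positive lines, was at 5885 to 9156 CPM in the BT474 and ZR-75-30 libraries, against 114 to 336 CPM in the other 8. Both monolayer pairs kept in RPMI stood apart from the rest. Mitochondrially encoded transcripts took 17.8% of counts in HCC1806 monolayer replicate 1 and 0.768% in replicate 2, and 1.96% in ZR-75-30 replicate 1 and 20.5% in replicate 2, against 1.09 to 6.30% in the other 12 libraries. The 2 HCC1806 monolayer libraries differed by more than 2-fold in 14 of the 42 genes and 38.99% of all genes, the 2 ZR-75-30 libraries in 8 and 17.2%, the CAL148 pair in 1 gene, and the other 5 pairs in 0 of the 42. For comparisons that use the HCC1806 or ZR-75-30 monolayers, counts of calls are therefore also given without each of those libraries, and so are values of called genes among the 42 that move by more than 1.5-fold.

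Levels between genes are compared only per length, on the authors' FPKM scale. NOP10, the small box H/ACA snoRNP protein that also belongs to telomerase, had the highest median level over the 16 libraries at 117 FPKM (range 102 to 352). NOP53, a 60S assembly factor that recruits the exosome, followed at 62.6 FPKM (26.96 to 290.3). Next came RRP36 at 28.7, the box C/D core protein NOP56 at 27.3 and its partner NOP58 at 22.9 FPKM, and the ranges of these 3 genes overlapped. At the low end stood UTP15 at 2.85, UTP14C at 1.58 and NOP2 at 0.117 FPKM. Every gene passed the filter on low counts in every comparison, NOP2 being the only one with a library at 0 counts (ZR-75-30 replicate 2, where 3 counts equal 0.0937 CPM). NOP2 encodes a ribosomal RNA methyltransferase, and 54.4% of its exon bases are shared with the gene AC006064.6 on the same strand. UTP14C, a gene copied from UTP14A through its RNA, shares 74.2% of its exon bases with ALG11. The part of this sharing in both low values was not tested. EXOSC10, NOP9, NOP16, EXOSC4, POLR1C, NOP14 and RRP7A share 15.9 to 39.3% of their exon bases with genes on the opposite strand, and without a stated strand setting those reads cannot be told apart.

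Across the 8 groups the mean CPM of a gene spanned from 1.66-fold (RRP1B, a nucleolar protein of 60S assembly) to 10.1-fold (RRP7A, a processome protein). RRP7A was at 154 and 140.1 CPM in HCC1806 day 10 spheroids, 127 and 124 in day 20 spheroids and 276 and 331 in HCC1806 monolayers. It was at 75.6 and 71.8 CPM in BT474 day 10 spheroids, 64.8 and 65.3 in day 20 spheroids, 65.8 and 61.1 in BT474 monolayers, 25.8 and 34.5 in CAL148 and 59.6 and 74.2 in ZR-75-30. All HCC1806 libraries stood above all others, and the CAL148 libraries stood lowest. UTP23, a processome protein, spanned 9.88-fold, with 9.36 and 7.90 CPM in CAL148 and 109.6 and 60.9 CPM in ZR-75-30, no other library falling outside that span. HCC1806 monolayers had the highest mean for 22 of the 42 genes, ZR-75-30 for 9, BT474 monolayers for 8, CAL148 for 2 and BT474 day 10 spheroids for 1. With HCC1806 replicate 1 or 2 left out HCC1806 monolayers had the highest mean for 20 or 18 genes, and with ZR-75-30 replicate 1 or 2 left out for 16 or 25. The lowest mean fell in HCC1806 day 10 spheroids for 8 genes and day 20 spheroids for 4, in CAL148 for 8, in ZR-75-30 for 8, in BT474 day 20 spheroids for 7, in BT474 monolayers for 5, and in HCC1806 monolayers and BT474 day 10 spheroids for 1 each. Counts of highest and lowest means were made for the 42 genes only, so no share of all genes stands beside them. Together the 42 genes took 0.227 to 0.240% of counts in the 4 HCC1806 spheroid libraries, against 0.326 and 0.324% in the 2 HCC1806 monolayer libraries. In BT474 they took 0.187 to 0.200% in the 4 spheroid libraries, against 0.218 and 0.218% in the 2 monolayer libraries. The shares were 0.259 and 0.275% in CAL148 and 0.222 and 0.203% in ZR-75-30. The 2 HCC1806 monolayer libraries were less alike in summed CPM, at 4160 and 3189, against 2080 to 2196 in the HCC1806 spheroids. NOP53 alone was at 1468 and 232 CPM in those 2 monolayer libraries.

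**Figure D1:**
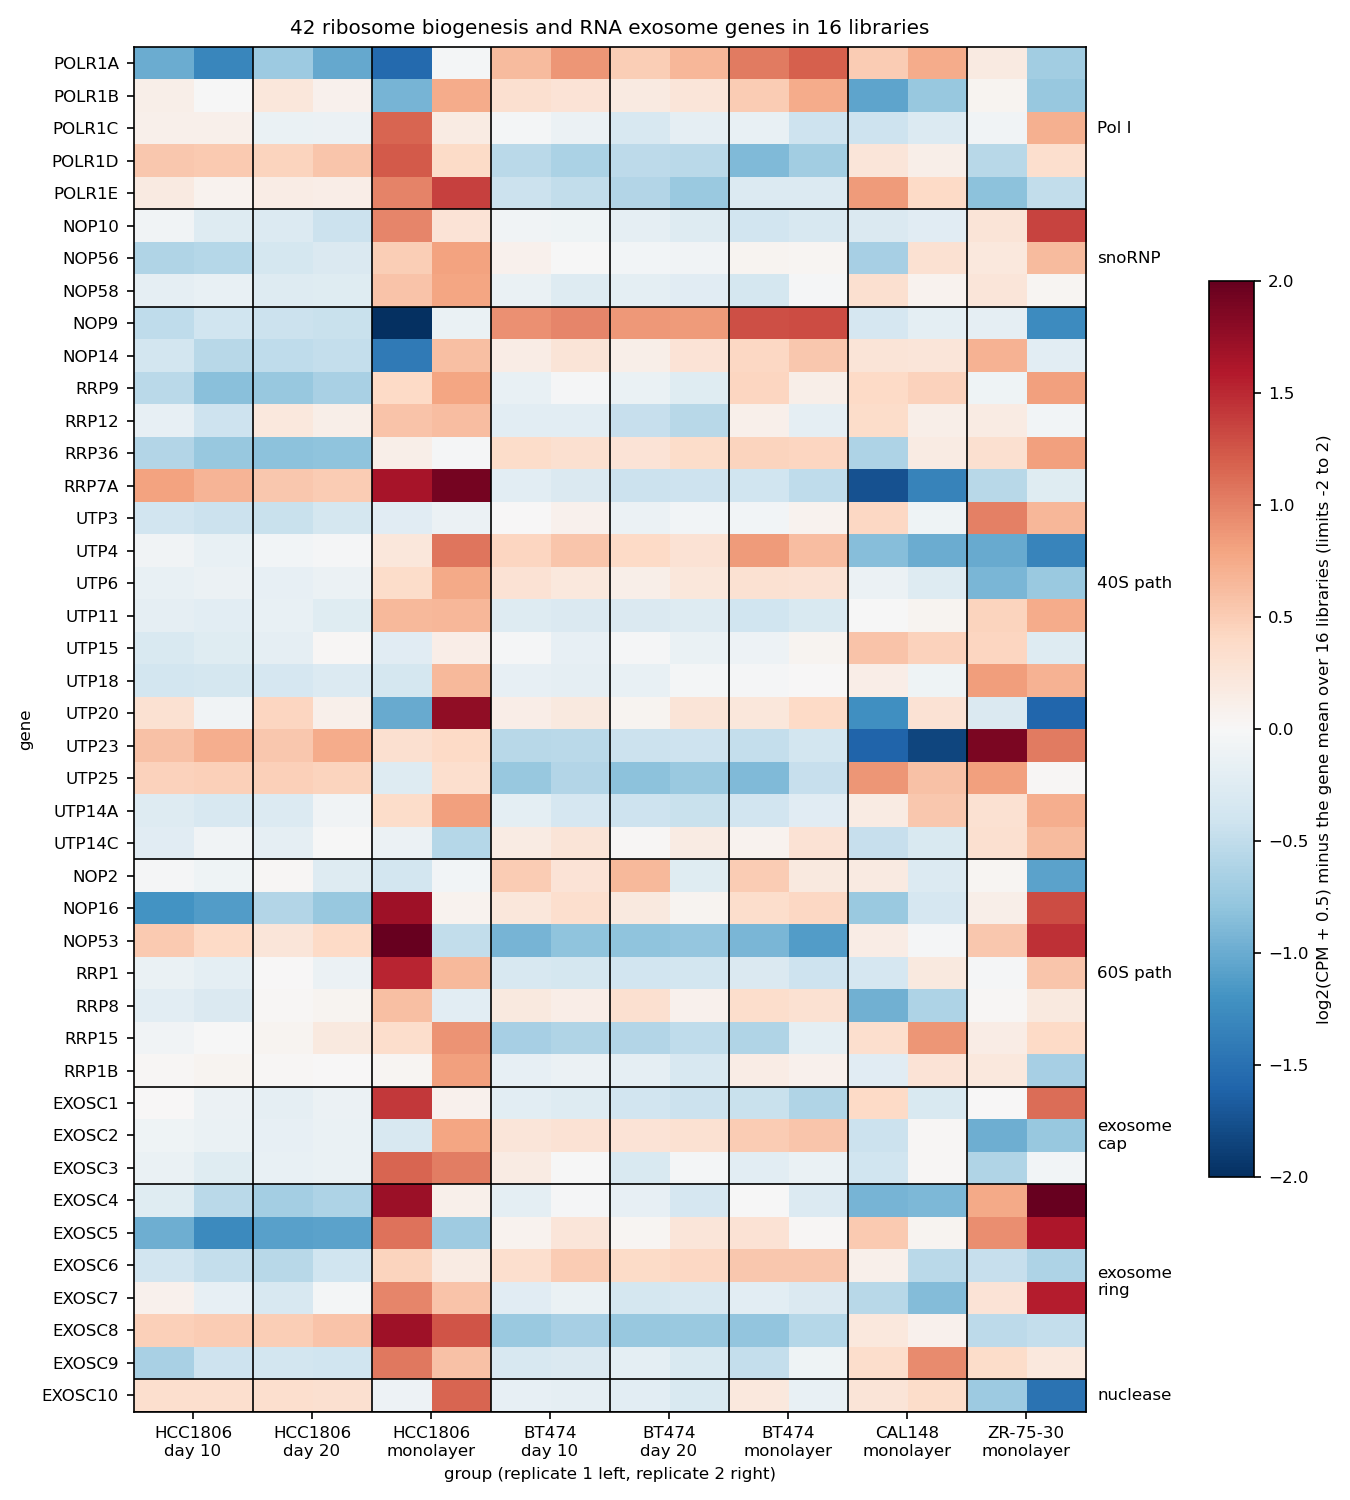
Heat map of the 42 genes (ordered by role) in the 16 libraries, coloured by log2(CPM + 0.5) minus the gene's mean over all 16, from -2 to 2, with replicate 1 left of replicate 2. The HCC1806 monolayer columns hold the highest group mean for 22 genes and differ between replicates by over 2-fold for 14, while no spheroid pair differs that much for any gene. The count of highest means was made for these 42 genes only, with no share of all genes beside it.

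On GRCh38, the genes most often named below lie at chr9:37766978-37801437 (EXOSC3, minus strand), chr20:2652145-2658393 (NOP56, plus strand), chr3:51933430-51941941 (RRP9, minus strand), chr22:42509968-42519802 (RRP7A, minus strand), chr5:176383938-176388975 (NOP16, minus strand), chr10:97356358-97426076 (RRP12, minus strand) and chr2:86020216-86106155 (POLR1A, minus strand). Read counts cover all exons of a gene, and 18 of the 42 genes share no exon base with another gene.

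In HCC1806, 17 of the 42 genes were lower in day 10 spheroids than in monolayers and 18 were lower in day 20 spheroids, and none was higher (edgeR quasi-likelihood test, Benjamini-Hochberg adjusted p under 0.05 over the 20929 genes tested). Of all genes tested, 8.72% were called at day 10 (3.58% lower and 5.14% higher) and 11.1% at day 20 (4.85% lower and 6.24% higher). The median log2 fold change of the 42 genes was -0.79 at day 10 and -0.78 at day 20, while that of all genes was 0 at both days, and 37 genes at day 10 and 36 at day 20 had a negative value. For 25 genes all 4 spheroid libraries lay below both monolayer libraries, for 2 (UTP23 and UTP25) all lay above, and for 9 all lay between the 2 monolayer libraries. These counts over both days were made for the 42 genes only, so no share of all genes stands beside them. By day, 27 genes at day 10 and 26 at day 20 lay below both monolayer libraries without overlap, as did 16.9% and 17.7% of all genes, and 2 genes lay above at each day, as did 25.7% and 26.9% of all genes. The days share their monolayer libraries, so their values are given side by side and are not independent.

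Of the 10 exosome subunits 5 were lower at day 10 and 6 at day 20, and all 10 had a negative log2 fold change at both days (given below ± SE). EXOSC3, an RNA-binding subunit of the cap, was at 15.98 and 14.7 CPM in day 10 spheroids and 15.8 and 15.9 CPM in day 20 spheroids, against 39.96 and 36.2 CPM in monolayers. All 4 spheroid libraries lay far below both monolayer libraries, which were close to each other. The log2 fold change was -1.32 ± 0.19 (SE, edgeR adjusted p = 0.00616) at day 10 and -1.27 ± 0.19 (edgeR adjusted p = 0.00584) at day 20. EXOSC9, a ring subunit, was at 12.99 and 15.3 CPM at day 10 and 15.8 and 15.5 CPM at day 20, against 43.4 and 31.1 CPM in monolayers (-1.41 ± 0.23, edgeR adjusted p = 0.00997 at day 10, -1.26 ± 0.23, edgeR adjusted p = 0.0126 at day 20). Its groups did not overlap at either day. The ring subunits EXOSC8, EXOSC7 and EXOSC6 were also lower at both days, with log2 fold changes of -1.01, -0.84 and -0.75 at day 10 and -0.98, -0.97 and -0.80 at day 20 (edgeR adjusted p from 0.0146 to 0.0388). EXOSC4, the remaining ring subunit that passed, did so at day 20 alone, where it was at 16.9 and 17.7 CPM in spheroids against 90.9 and 29.5 CPM in monolayers (-1.81 ± 0.44, edgeR adjusted p = 0.0344). Its monolayer libraries lay far apart, both above every spheroid library, and the day 20 value was -0.85 without monolayer replicate 1 and -2.38 without replicate 2. EXOSC5, also of the ring, had 10.8 and 8.66 CPM at day 10 and 10.01 and 10.1 CPM at day 20, against 46.8 and 13.1 CPM in monolayers, and did not pass (-1.63 (edgeR adjusted p = 0.0757) and -1.58 (edgeR adjusted p = 0.0735)). The nuclease EXOSC10 had 75.2 and 75.03 CPM at day 10 and 74.9 and 73.9 CPM at day 20, against 55.2 and 133 CPM in monolayers, so its spheroid libraries lay between the 2 monolayer libraries (-0.33 (edgeR adjusted p = 0.583) and -0.34 (edgeR adjusted p = 0.551)).

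**Figure D2:**
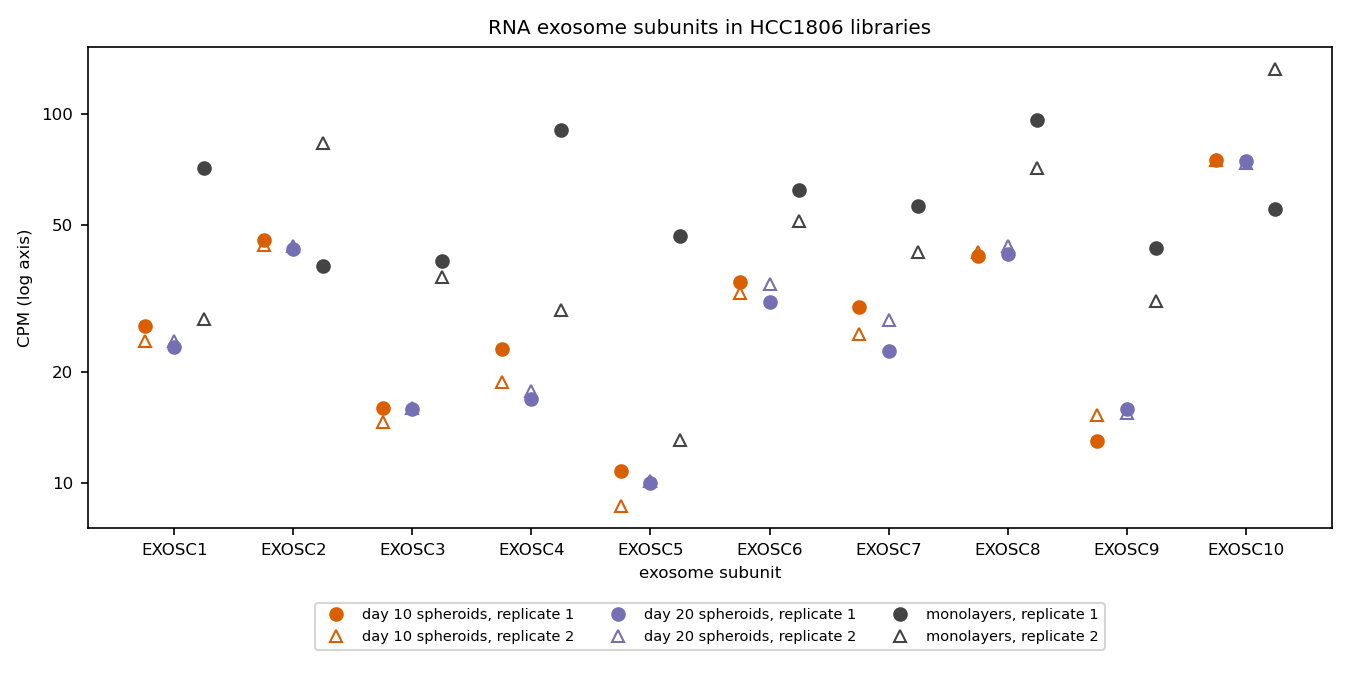
CPM (log axis) of the 10 exosome subunits in the 6 HCC1806 libraries, in the order day 10 spheroids, day 20 spheroids and monolayers, with a point per library. The spheroid points of a gene lie close together, the EXOSC3 and EXOSC9 monolayer points lie above all of them, and the EXOSC10 and EXOSC2 monolayer points lie on both sides.

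Among snoRNP core proteins, NOP56 and NOP58 of the box C/D particle were lower at both days and NOP10 of the box H/ACA particle at day 20. NOP56 was at 100.04 and 102 CPM in day 10 spheroids and 119 and 123 CPM in day 20 spheroids, against 213 and 264 CPM in monolayers, with no overlap. Its log2 fold change was -1.25 ± 0.16, edgeR adjusted p = 0.00422 at day 10, and -0.98 ± 0.16, edgeR adjusted p = 0.00754 at day 20. NOP58 had log2 fold changes of -0.85 ± 0.17, edgeR adjusted p = 0.0174 at day 10, and -0.94 ± 0.17, edgeR adjusted p = 0.0106 at day 20. NOP10 was at 72.7 and 63.7 CPM at day 10 (-0.84 (edgeR adjusted p = 0.0552), not called) and 63.4 and 56.8 CPM at day 20 (-1.02 ± 0.23, edgeR adjusted p = 0.025), against 151 and 92.1 CPM in monolayers. NOP56 and NOP58 carry 5 and 4 snoRNA genes inside them in the annotation, and these short RNAs were not analysed here.

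Of the 17 processome and 40S genes, 7 were lower at day 10 and 6 at day 20. RRP9, the protein that binds U3 snoRNA, was at 18.1 and 14.6 CPM at day 10 and 15.5 and 16.9 CPM at day 20, against 35.3 and 46.1 CPM in monolayers. All 4 spheroid libraries lay below both monolayer libraries, with a log2 fold change of -1.32 ± 0.21, edgeR adjusted p = 0.00899 at day 10, and -1.34 ± 0.21, edgeR adjusted p = 0.00779 at day 20. RRP7A averaged 147 ± 9.54 CPM at day 10 and 126 ± 2.15 CPM at day 20, against 303 ± 38.4 CPM in monolayers (SD, n = 2 each), a log2 fold change of -1.05 ± 0.15, edgeR adjusted p = 0.00658, and -1.28 ± 0.15, edgeR adjusted p = 0.00265. UTP14A, UTP11, UTP6 and RRP36 were also lower at both days, with log2 fold changes of -0.92, -0.87, -0.72 and -0.74 at day 10 and -0.80, -0.87, -0.73 and -0.89 at day 20 (edgeR adjusted p from 0.00911 to 0.0377). RRP12, a factor in 40S maturation and export, was at 48.5 and 40.6 CPM at day 10 and 63.2 and 59.5 CPM at day 20, against 81.2 and 83.8 CPM in monolayers. It passed at day 10 (-0.90 ± 0.17, edgeR adjusted p = 0.0148) and not at day 20 (-0.43 ± 0.17, edgeR adjusted p = 0.128), although at both days all spheroid libraries lay below both monolayer libraries. UTP4, of the complex that binds the precursor first, did not pass (-0.83 (edgeR adjusted p = 0.0798) at day 10 and -0.76 (edgeR adjusted p = 0.0896) at day 20). UTP20 had 45.7 and 35.3 CPM at day 10 and 50.1 and 39.9 CPM at day 20, against 18.1 and 128 CPM in monolayers, and did not pass (-0.85 and -0.70). UTP14C had log2 fold changes of 0.18 (edgeR adjusted p = 0.698) at day 10 and 0.25 (edgeR adjusted p = 0.568) at day 20.

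Among 60S assembly genes NOP16 and RRP1 were lower at both days. NOP16 was at 8.94 and 9.41 CPM in day 10 spheroids and 13.9 and 12.2 CPM in day 20 spheroids, against 69.7 and 22.2 CPM in monolayers. Every spheroid library lay below both monolayer libraries, of which replicate 1 was by far the higher. Its log2 fold change was -2.33 ± 0.45, edgeR adjusted p = 0.0171 at day 10 and -1.82 ± 0.44, edgeR adjusted p = 0.0328 at day 20. At day 10 it was -1.36 without monolayer replicate 1 and -2.91 without replicate 2, and at day 20 -0.85 and -2.40. RRP1 averaged 36.7 ± 1.14 CPM at day 10 and 39.8 ± 2.21 CPM at day 20, against 92.5 ± 39.2 CPM in monolayers (SD, n = 2 each; -1.34 ± 0.26, edgeR adjusted p = 0.0186 and -1.23 ± 0.26, edgeR adjusted p = 0.0217). NOP53 had 472 and 431 CPM at day 10 and 389 and 429.6 CPM at day 20, between the 1468 and 232 CPM of the 2 monolayer libraries (-0.92 (edgeR adjusted p = 0.393) and -1.06 (edgeR adjusted p = 0.313)). NOP2, at 0.537 and 0.497 CPM at day 10 and 0.575 and 0.383 CPM at day 20, against 0.316 and 0.516 CPM in monolayers, had log2 fold changes of 0.29 (edgeR adjusted p = 0.811) and 0.18 (edgeR adjusted p = 0.885).

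Of the 5 RNA polymerase I subunits POLR1E alone was lower, at both days. POLR1E, a subunit of the complex that helps initiation, was at 25.1 and 23.4 CPM at day 10 and 24.7 and 24.4 CPM at day 20, against 44.9 and 58.2 CPM in monolayers (-1.09 ± 0.18, edgeR adjusted p = 0.0105 and -1.08 ± 0.18, edgeR adjusted p = 0.00967), with no overlap. POLR1A, the largest catalytic subunit, had 44.3 and 35.7 CPM at day 10 and 53.5 and 43.4 CPM at day 20, against 29.8 and 86.5 CPM in monolayers (-0.55 (edgeR adjusted p = 0.432) and -0.27 (edgeR adjusted p = 0.715)). POLR1B, the second largest, had 50.8 and 46.1 CPM at day 10 and 54.7 and 49.5 CPM at day 20, against 24.2 and 78.4 CPM in monolayers (-0.088 (edgeR adjusted p = 0.936) and 0.017 (edgeR adjusted p = 1)). The spheroid libraries of both genes lay between the 2 monolayer libraries.

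All 17 genes called at day 10 and all 18 called at day 20 were also called lower with either HCC1806 monolayer library left out, but a fit with 1 monolayer library holds no spread for that group. 7 genes, none of them called with both libraries, were called in opposite directions depending on which library was left out: EXOSC10, NOP14, NOP53, NOP9, POLR1A, POLR1B and UTP20. The day 10 log2 fold change of UTP20 was -1.74 with replicate 1 left out and 1.17 with replicate 2 left out, and that of POLR1B was -0.78 with replicate 1 left out and 1.02 with replicate 2 left out. For NOP53 it ran the other way, at 0.87 with replicate 1 left out and -1.69 with replicate 2 left out. Those of NOP9 were -0.42 with replicate 1 left out and 1.93 with replicate 2 left out, those of NOP14 were -1.14 with replicate 1 left out and 1.00 with replicate 2 left out, those of POLR1A were -1.20 with replicate 1 left out and 0.44 with replicate 2 left out, and those of EXOSC10 were -0.90 with replicate 1 left out and 0.46 with replicate 2 left out. The count of genes called at day 10 was 34 without monolayer replicate 1 (33 lower) and 35 without replicate 2 (27 lower and 8 higher), 0 without either day 10 library, and 11 without any one of the day 20 or BT474 spheroid libraries. At day 20 it was 32 without monolayer replicate 1 (31 lower) and 33 without replicate 2 (25 lower and 8 higher), 1 without either day 20 library, 11 without either day 10 library, and 10 without any one BT474 spheroid library. No share of all genes is given beside these counts, so the rise cannot be read as a result about the 42 genes. Other gene lists of the same pathway also held more calls without either HCC1806 monolayer library. That does not show whether all genes did. With voom quality weights, which give a spread-out library less weight, 0 of the 42 genes were called at either day, and fitted with all 16 libraries 12 were called at day 10 and 9 at day 20.

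The difference between the 2 HCC1806 monolayer libraries varied with gene length. Across the 42 genes, Spearman's rho between gene length and the log2 difference of replicate 1 minus replicate 2 was -0.359, next to -0.360 across 13222 protein-coding genes; in ZR-75-30 the values were 0.493 and 0.448. These are descriptions across genes that share both libraries, and genes are not independent replicates. NOP10, the shortest at 554 bases, had 151 and 92.1 CPM in HCC1806 monolayer replicates 1 and 2 and 91.1 and 196 CPM in those of ZR-75-30. POLR1A, the longest at 13519 bases, had 29.8 and 86.5 CPM and 101 and 54.8 CPM in the same libraries. Of the 5 genes more than 2-fold apart in both pairs, 3 were higher in HCC1806 replicate 1 and ZR-75-30 replicate 2, and 2 were higher in HCC1806 replicate 2 and ZR-75-30 replicate 1. The part of gene length in the results was not tested.

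**Figure D3:**
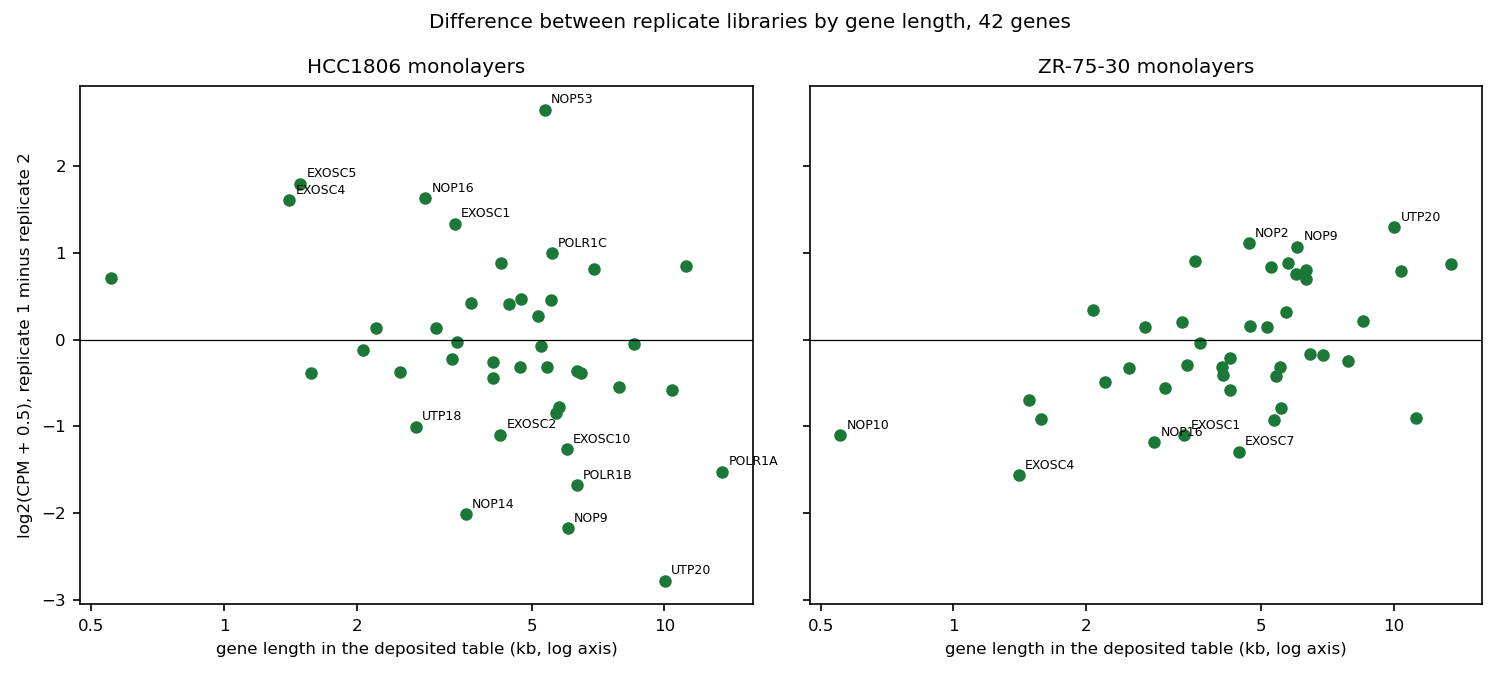
Log2 difference in CPM of replicate 1 minus replicate 2 against gene length in kilobases (log axis) for the 42 genes, in HCC1806 monolayers and in ZR-75-30 monolayers. The HCC1806 points slope down (rho -0.359) and the ZR-75-30 points slope up (rho 0.493).

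Other genes of the pathway, from lists chosen with earlier results of these data known, were tested in the same fit. Of 51 other 60S assembly genes, 17 were lower at day 10 and 14 at day 20 and none was higher, with median log2 fold changes of -0.62 and -0.50. The 60S factors EBNA1BP2 (-1.72 and -1.56), MRTO4 (-1.70 and -1.57) and LYAR (-1.60 and -1.59) had the largest changes of that list. Of 23 other snoRNP and modification genes 6 were lower at each day, among them the box C/D methyltransferase fibrillarin, FBL (-1.39 and -1.69), RUVBL2 (-1.23 and -1.35), which helps assemble snoRNPs, and the methyltransferase NSUN5 (-1.26 and -1.27). Of 44 other processome and 40S genes 10 were lower and 1 was higher at each day. LTV1, a 40S factor, had the lowest value (-1.35 and -1.26), followed by DDX49 (-1.09 and -1.15), a helicase, with IMP4 (-1.08), a U3 snoRNP protein, next at day 10 and NOC4L (-1.14) at day 20. The higher gene was the kinase RIOK3 (0.91 and 0.95). Of 13 further RNA polymerase I factors CD3EAP (-1.93 and -1.54) and TCOF1 (-1.53 and -1.41) were lower at both days, TCOF1 having -0.91 and -0.78 without monolayer replicate 2. Of 22 exosome partners and exoribonucleases, DIS3, a catalytic exosome subunit not named EXOSC, was the only one called, and it was higher in spheroids (0.74 ± 0.17, edgeR adjusted p = 0.0313 at day 10, and 0.63 ± 0.17, edgeR adjusted p = 0.0484 at day 20). DIS3 averaged 73.8 ± 2.12 CPM at day 10 and 68.1 ± 0.147 CPM at day 20, against 43.96 ± 5.37 CPM in monolayers (SD, n = 2 each). With 1 monolayer library left out these lists split by direction. Without replicate 1, 45 of the 60S list were lower at day 10 and 0 higher, and 35 and 1 of the processome list. Without replicate 2, 26 of the 60S list were lower and 13 higher, and 18 and 15 of the processome list. Of the snoRNP list 17 were lower without replicate 1 and 14 without replicate 2, with 0 and 2 higher. Of the exosome partners 10 were lower and 3 higher without replicate 1, and 3 lower and 14 higher without replicate 2.

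MYC itself had 191 and 173 CPM in HCC1806 day 10 spheroids and 212 and 179.6 CPM in day 20 spheroids, against 117 and 208 CPM in monolayers, and did not pass (0.15 (edgeR adjusted p = 0.768) and 0.26 (edgeR adjusted p = 0.571)). Its antagonist MXD1, which binds the same partner protein, was higher at both days, with 83.9 and 85.1 CPM and 115 and 69.2 CPM in spheroids, against 26.7 and 24.8 CPM in monolayers (1.71 ± 0.26, edgeR adjusted p = 0.00765 and 1.83 ± 0.26, edgeR adjusted p = 0.00498). MXD4, of the same family, was also higher (2.25 ± 0.51, edgeR adjusted p = 0.0315 and 1.90 ± 0.51, edgeR adjusted p = 0.0472), with 3.49 and 3.13 without monolayer replicate 1 and 1.60 and 1.24 without replicate 2. MYCN was called higher at day 20, at 0.575 and 1.00 CPM in spheroids against 0 and 0.0544 CPM in monolayers, which are under the floor of 3 counts. Beside the 42 genes, 4 of 12 proliferation markers were lower at each day, including AURKB (-1.50 and -1.78), RRM2 (-1.54 and -1.64) and MCM5 (-1.19 and -1.40). Without monolayer replicate 1, 12 of the 12 were lower at day 10, and without replicate 2, 4 were lower and 7 higher. The summed proliferation markers were at 945 to 1349 CPM in the 4 spheroid libraries, against 969 and 3506 CPM in the 2 monolayer libraries. Of 84 ribosomal protein genes 3 were lower at each day, with medians of -1.07 and -1.12, and they took 14.6% of counts in monolayer replicate 1 and 4.57% in replicate 2. The part of proliferation and of these library differences in the result was not tested.

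Promoter sequence was read from RefSeq (build GRCh38.p14) for 35 of the 42 genes, as the 250 bases before the start of the gene. The E-box CACGTG, which reads the same on both strands, was found in 6 of the 35 (17.1%), against 7.89% of 14896 promoters of the same length: EXOSC5, NOP10, UTP14A, UTP18, UTP20 and UTP4. The ETS core CCGGAAG, on either strand, was in 9 (25.7%) against 11.97%, and CCAAT in 10 (28.6%) against 34.5%. The palindromes bound by ZBTB33 and by NRF1 were in 1 promoter each (2.86%), against 0.604% and 1.48% of all. The median GC content was 61.2% for the 35 and 62.4% for all. Sequences are shown for 4 genes that were lower in HCC1806 day 20 spheroids, a pair with the E-box and a pair without, each 5′ to 3′ on the gene's strand with the E-box in capitals. NOP10 (chr15:34343137-34343386, minus strand) has E-boxes starting 170 and 11 bases before the RefSeq start, and UTP14A (chrX:129905914-129906163, plus strand) has one 241 bases before its RefSeq start. EXOSC3 (chr9:37785093-37785342, minus strand) and RRP9 (chr3:51941905-51942154, minus strand), whose fold changes were among the 5 lowest of the called genes at day 20, have none in this window. The RefSeq start of each of these 4 genes lies inside the longer span that GENCODE gives the gene, so each window runs into that span. The NOP10 E-box at 11 bases lies inside it. A match is a description of letters and not a binding site.
NOP10: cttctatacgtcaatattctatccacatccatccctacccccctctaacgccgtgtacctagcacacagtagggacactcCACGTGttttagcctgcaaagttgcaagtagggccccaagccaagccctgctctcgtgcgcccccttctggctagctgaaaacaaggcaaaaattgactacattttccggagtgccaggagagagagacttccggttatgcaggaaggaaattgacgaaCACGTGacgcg
UTP14A: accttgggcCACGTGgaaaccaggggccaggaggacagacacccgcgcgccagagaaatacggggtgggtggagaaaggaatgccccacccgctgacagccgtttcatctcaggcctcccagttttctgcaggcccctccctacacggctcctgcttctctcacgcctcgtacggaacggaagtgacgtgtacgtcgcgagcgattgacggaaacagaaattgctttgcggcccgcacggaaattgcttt
EXOSC3: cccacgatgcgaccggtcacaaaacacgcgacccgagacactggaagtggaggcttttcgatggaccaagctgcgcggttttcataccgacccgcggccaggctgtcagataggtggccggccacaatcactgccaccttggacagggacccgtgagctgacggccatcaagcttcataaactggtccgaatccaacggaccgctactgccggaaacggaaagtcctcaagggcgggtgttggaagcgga
RRP9: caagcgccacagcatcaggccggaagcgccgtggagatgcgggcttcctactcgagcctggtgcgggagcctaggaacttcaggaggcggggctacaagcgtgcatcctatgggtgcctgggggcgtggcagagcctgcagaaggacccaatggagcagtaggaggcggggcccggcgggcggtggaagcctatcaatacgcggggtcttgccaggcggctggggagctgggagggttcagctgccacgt

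The spheroid effect in HCC1806 was set against that in BT474 as a difference of log2 fold changes. At day 10 it was lower in HCC1806 for 3 of the 42 genes, with 1.35% of all genes called and 0.392% called lower, and at day 20 for 2, with 2.77% called and 0.98% called lower. EXOSC3 had a difference of -1.58 ± 0.26, edgeR adjusted p = 0.0324 at day 10, and -1.27 ± 0.26, edgeR adjusted p = 0.0448 at day 20. In BT474 EXOSC3 was at 19.8 and 17.5 CPM in day 10 spheroids and 14.1 and 17.05 CPM in day 20 spheroids, against 15.2 and 15.98 CPM in monolayers, which overlapped with day 20. RRP7A had a difference of -1.27 ± 0.22, edgeR adjusted p = 0.0335 at day 10, and -1.31 ± 0.22, edgeR adjusted p = 0.0242 at day 20. Its BT474 spheroid values, given above, lay above both BT474 monolayer libraries at day 10 and within them at day 20. NOP56 had a difference of -1.24 ± 0.22, edgeR adjusted p = 0.039 at day 10, and -0.87 ± 0.22, edgeR adjusted p = 0.0761 at day 20, where it did not pass. In BT474 NOP56 was at 160.2 and 150.2 CPM in day 10 spheroids and 146 and 144 CPM in day 20 spheroids, against 157 and 156 CPM in monolayers. The median difference of the 42 genes was -0.68 at day 10 and -0.64 at day 20, against -0.025 and -0.0037 for all genes.

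The other named genes did not pass in this difference. Their day 10 and day 20 values were -0.83 and -0.90 for NOP58, -1.12 and -1.16 for NOP10, -0.95 and -0.87 for RRP9, and -0.71 and 0.054 for RRP12. UTP14A had -0.96 and -0.66, UTP4 -0.58 and -0.37, UTP14C 0.16 and 0.34, and EXOSC5 -1.63 and -1.55. POLR1A (-0.18 and 0.28), POLR1B (0.26 and 0.45), NOP53 (-1.07 and -1.29), UTP20 (-0.70 and -0.54), EXOSC10 (-0.11 and -0.038) and NOP2 (0.24 and 0.33) were among them, with edgeR adjusted p of 0.483 or more. Among other genes of the pathway the effect was lower in HCC1806 at both days for fibrillarin (-1.20 and -1.61), IMP4 (-1.16 and -0.94) and MRTO4 (-1.33 and -1.32), and at day 10 alone for RRS1 (-1.37), a 60S factor. At day 20 alone it was lower for NSUN5 (-1.22), RUVBL2 (-1.20), RUVBL1 (-1.03), the 60S factor GNL2 (-1.33) and the exosome-associated MPHOSPH6 (-1.12), and higher for MXD1 (2.00). Of 12 proliferation markers 0 were called at day 10 and 3 were lower at day 20, AURKB (-1.71), MCM5 (-1.03) and PCNA (-0.99). MYCN was also called higher at day 20, against HCC1806 monolayer values under the floor. MYC did not pass (0.10 and 0.35). With HCC1806 monolayer replicate 1 or 2 left out, 32 or 34 of the 42 genes were called at day 10 (31 or 25 of them lower) and 27 or 32 at day 20 (26 or 23 lower), and with any one of the other 10 libraries left out 0 were called at either day. All calls of the difference were also lost with the all-library fit, with voom weights and, at day 10, with a replicate block. Shares of all genes are not given beside the counts without single libraries, so those counts are not a result about the 42 genes.

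**Figure D4:**
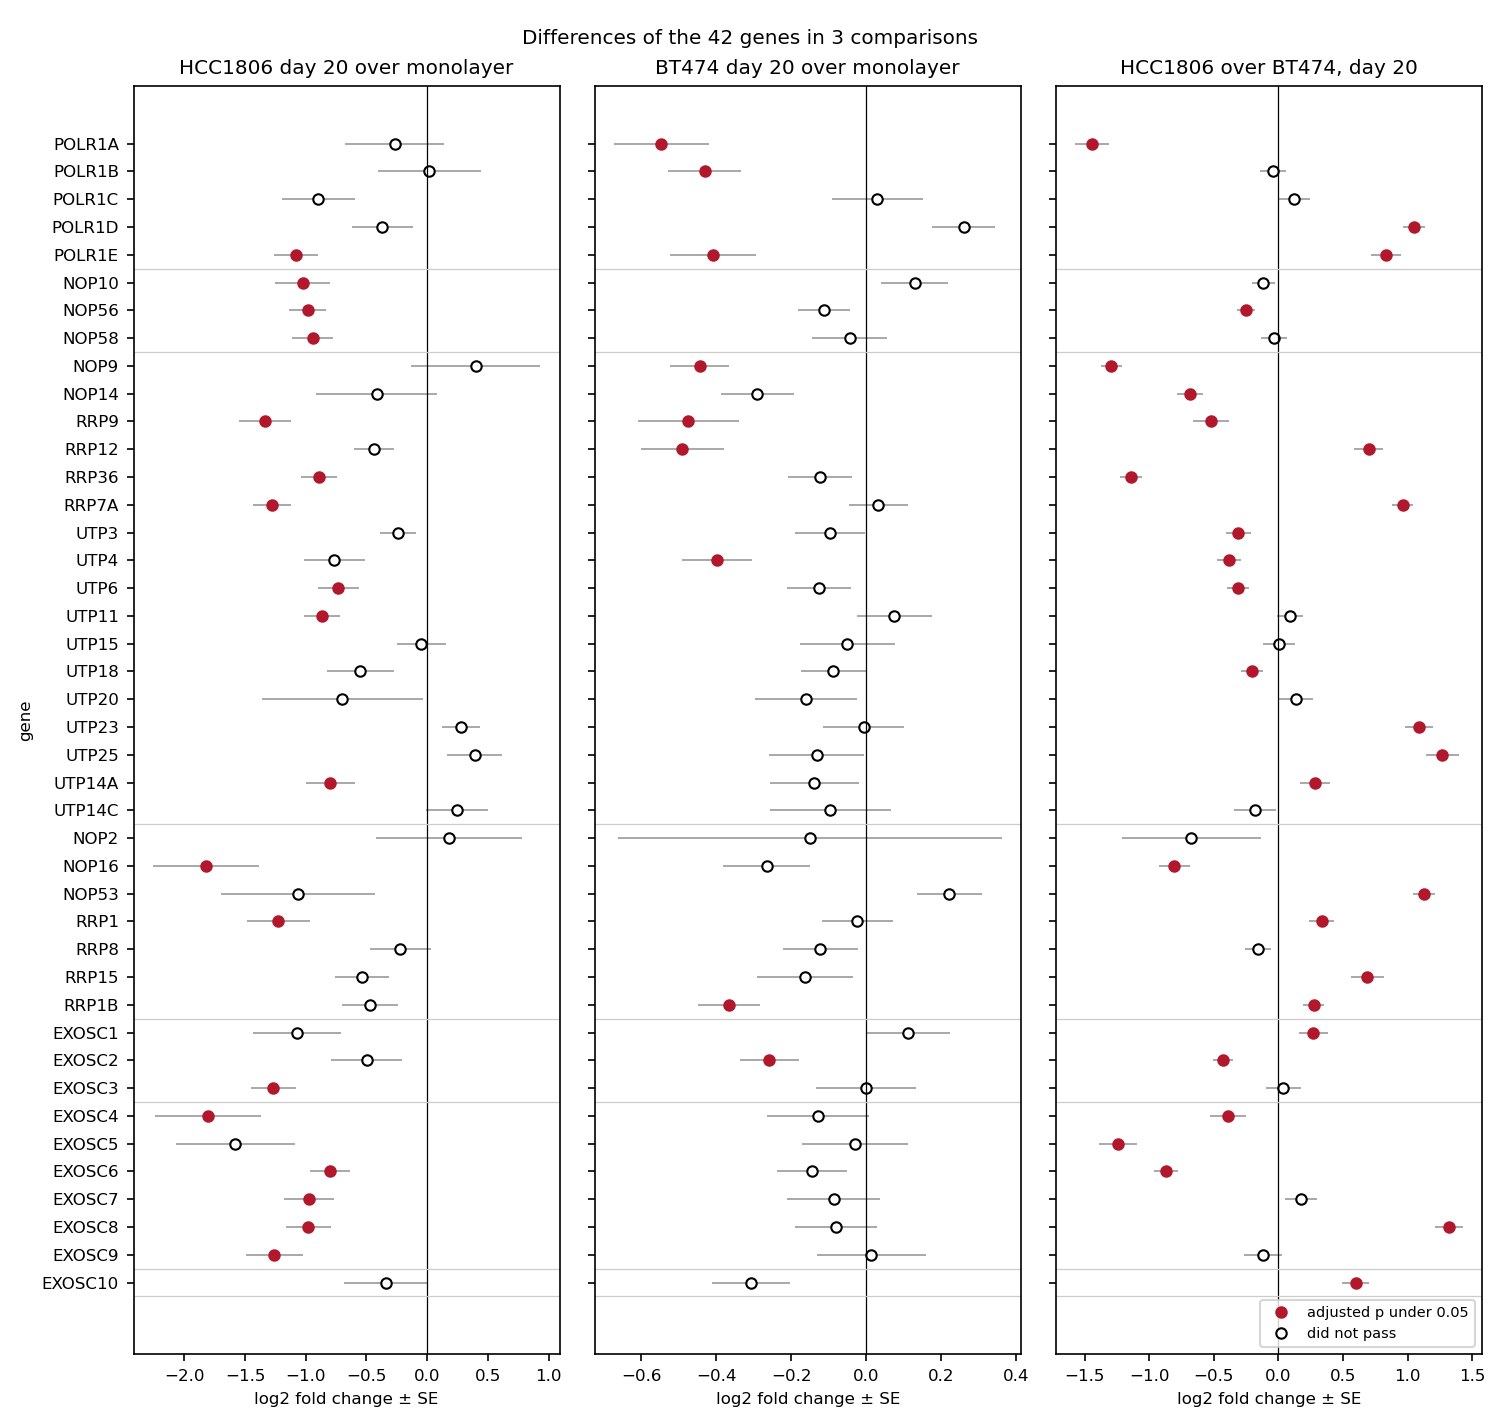
Log2 fold changes with SE bars of the 42 genes in HCC1806 day 20 spheroids over monolayers, BT474 day 20 spheroids over monolayers, and HCC1806 over BT474 day 20 spheroids, with filled red points for adjusted p under 0.05. In the first panel 18 genes are filled, all below 0 and with wide bars, in the second 9 are filled and all lie closer to 0, and in the third 14 are filled above 0 and 15 below.

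Within HCC1806 spheroids, 3 of the 42 genes were higher at day 20 than at day 10 and none was lower. This comparison uses no HCC1806 monolayer library, although the BT474 monolayers share its fit, and 6.8% of all genes were called, 3.2% as higher and 3.6% as lower, so a count of 3 is near the background. RRP12 was at 63.2 and 59.5 CPM at day 20, against 48.5 and 40.6 CPM at day 10 (0.47 ± 0.11, edgeR adjusted p = 0.0202). NOP16 was at 13.9 and 12.2 CPM at day 20, against 8.94 and 9.41 CPM at day 10 (0.52 ± 0.12, edgeR adjusted p = 0.0223). NOP56 was at 119 and 123 CPM at day 20, against 100.04 and 102 CPM at day 10 (0.27 ± 0.070, edgeR adjusted p = 0.033). In all 3 genes both day 20 libraries lay above both day 10 libraries. The median of the 42 genes was 0.0071 and their range was -0.27 to 0.52. The other named genes did not pass: POLR1A had 0.28, POLR1B 0.11, NOP58 -0.083, NOP10 -0.18, NOP2 -0.11, NOP53 -0.13, RRP9 -0.0097 and UTP4 0.072. UTP20 had 0.16, UTP14A 0.13, UTP14C 0.072, EXOSC3 0.059, EXOSC5 0.059 and EXOSC10 -0.0060.

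The change between days was also set against that in BT474. It was higher in HCC1806 for RRP12 alone (0.77 ± 0.16, edgeR adjusted p = 0.0173), with 2.67% of all genes called (1.56% higher and 1.11% lower). RRP12 in BT474 was at 39.4 and 36.8 CPM at day 20, against 47.2 and 46.9 CPM at day 10 (-0.30 (edgeR adjusted p = 0.376)), both day 20 libraries lying below both day 10 libraries, the opposite order to HCC1806. NOP16 (0.67 (edgeR adjusted p = 0.0538)) and NOP56 (0.36 (edgeR adjusted p = 0.0729)) did not pass. The other named genes had differences of -0.21 to 0.46 and did not pass. Among other pathway genes in HCC1806 the acetyltransferase NAT10 (0.32), NOM1 (0.38) and SBDS (0.33) were higher at day 20 and fibrillarin, FBL, was lower (-0.29). MYCN was higher, at 0.575 and 1.00 CPM at day 20 against 0.0933 and 0.131 CPM at day 10, and so was MXI1 (0.45), of the MXD family. The day 10 values of MYCN lie near the floor of 3 counts, 0.0748 and 0.0855 CPM in those libraries. MYCL was higher, at 74.9 and 96.05 CPM at day 20 against 41.2 and 46.7 CPM at day 10 (0.97), while MYC did not pass (0.11), and TOP2A (-0.59) and BUB1 (-0.42) of the proliferation markers were lower. In the difference from BT474 the calls of these lists were MYCN as higher and TOP2A (-0.74) and BUB1 (-0.52) as lower. The 3 HCC1806 calls and the RRP12 difference were lost when the HCC1806 monolayers were added to the fit. Without day 10 replicate 1 or day 20 replicate 2 of HCC1806 1 gene was called between the days, without day 10 replicate 2 or day 20 replicate 1 none was, and without BT474 monolayer replicate 1 or 2 there were 5 or 4. The RRP12 difference was lost without HCC1806 day 10 replicate 2, day 20 replicate 1, either BT474 day 10 library or BT474 day 20 replicate 2, and without either BT474 monolayer library 3 genes were called.

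**Figure D5:**
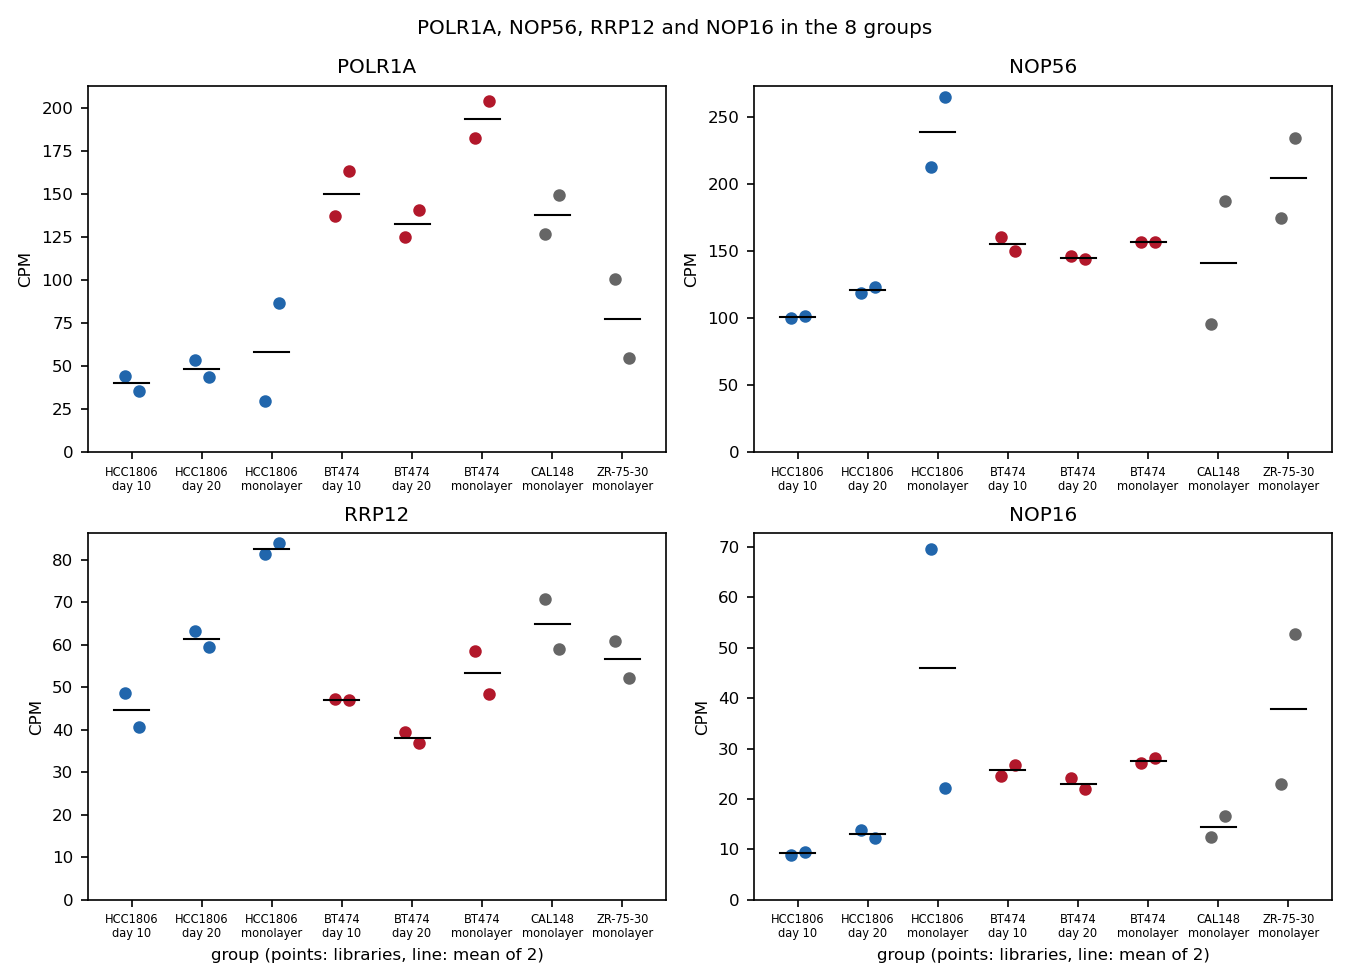
CPM of POLR1A, NOP56, RRP12 and NOP16 in the 8 groups, with a point per library and a line at the mean of 2. The order of group means differs between genes: POLR1A is highest in BT474 monolayers, while NOP56, RRP12 and NOP16 are highest in HCC1806 monolayers. For NOP16 this rests on HCC1806 replicate 1 (69.7 CPM). Replicate 2 (22.2 CPM) lies below both ZR-75-30 libraries (22.9 and 52.7 CPM).

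In BT474, 3 of the 42 genes were lower in day 10 spheroids than in monolayers and 9 were lower in day 20 spheroids, and none was higher. Of all 20606 genes tested 12.2% were called at day 10 (5.67% lower and 6.58% higher), so the day 10 count is near the background, and 14.6% at day 20 (7.24% lower and 7.4% higher). The median log2 fold change of the 42 genes was -0.055 at day 10 and -0.12 at day 20, against 0 for all genes. At day 10, 19 genes lay below and 7 above both monolayer libraries, as did 23.8% and 26.8% of all genes, and at day 20 19 lay below and 5 above, as did 24.7% and 26.2% of all genes. Both days were set against the same monolayer libraries.

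RNA polymerase I held 3 of the 9 genes. POLR1A was at 137 and 163 CPM in day 10 spheroids and 125 and 141 CPM in day 20 spheroids, against 183 and 204 CPM in monolayers. All spheroid libraries lay below both monolayer libraries, and the gene passed at day 20 (-0.55 ± 0.13, edgeR adjusted p = 0.0123) and not at day 10 (-0.37 ± 0.13, edgeR adjusted p = 0.077). POLR1B was at 58.2 and 56.5 CPM at day 10 and 52.7 and 55.4 CPM at day 20, against 66.8 and 78.7 CPM in monolayers, and passed at both days (-0.35 ± 0.097, edgeR adjusted p = 0.0322 and -0.43 ± 0.098, edgeR adjusted p = 0.00966). POLR1E passed at day 20, at 14.6 and 13.1 CPM in spheroids against 18.4 and 18.3 CPM in monolayers (-0.41 ± 0.11, edgeR adjusted p = 0.0294). POLR1D, a small subunit shared with RNA polymerase III, had 70.5 and 69.7 CPM at day 20 against 54.5 and 62.4 CPM in monolayers, a positive value that did not pass (0.26 (edgeR adjusted p = 0.0545)).

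NOP9, a processome protein that binds the precursor, was at 77.99 and 81.3 CPM at day 10 and 75.3 and 74.8 CPM at day 20, against 101 and 103 CPM in monolayers. It was lower at both days with no overlap (-0.36 ± 0.078, edgeR adjusted p = 0.00759 and -0.44 ± 0.078, edgeR adjusted p = 0.00192). EXOSC2, a cap subunit, was also lower at both days, at 57.3 and 59.5 CPM and 58.4 and 59.5 CPM in spheroids against 69.3 and 71.4 CPM in monolayers (-0.28 ± 0.078, edgeR adjusted p = 0.0341 and -0.26 ± 0.078, edgeR adjusted p = 0.041). RRP12 was lower at day 20 (-0.49 ± 0.11, edgeR adjusted p = 0.00933; -0.19 at day 10, not called), as were RRP9 (-0.48 ± 0.13, edgeR adjusted p = 0.0306; -0.38 at day 10), UTP4 (-0.40 ± 0.093, edgeR adjusted p = 0.0116; -0.26) and RRP1B (-0.37 ± 0.082, edgeR adjusted p = 0.00875; -0.26). The box C/D proteins NOP56 (-0.020 and -0.11) and NOP58 (-0.030 and -0.045) did not pass, nor did NOP10 (0.27 and 0.13). The same holds for EXOSC3 (0.25 and -0.00086), EXOSC5 (-0.012 and -0.030), EXOSC10 (-0.22 and -0.31), UTP20 (-0.16 and -0.16) and UTP14A (0.031 and -0.14). It holds also for UTP14C (0.018 and -0.096), NOP53 (0.14 and 0.22) and NOP2 (0.034 and -0.15). Between BT474 day 20 and day 10 spheroids 0 of the 42 genes were called by edgeR or DESeq2, with 0.281% of all genes called by edgeR (0.0922% higher and 0.189% lower), 2 of the 42 were under an unadjusted p of 0.05, and their log2 fold changes ran from -0.30 to 0.13. Without overlap, 5 of the 42 genes lay above and 19 below at day 20, against 21.8% and 22.9% of all genes.

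Among other pathway genes in BT474, 7 of 51 other 60S genes were lower at day 10 and 9 at day 20, with NVL (-0.75 and -0.62) and SBDS (-0.47 and -0.58) at both days, NOL9 (-0.47) among the 3 lowest at day 10 and GNL3L (-0.63) at day 20. Of the processome list BMS1 (-0.36) was lower at day 10 and RCL1 (-0.49), NOC4L (-0.36) and DCAF13 (-0.24) were lower at day 20. The RNA polymerase I factor TAF1A was lower at both days (-0.65 and -0.68) and CD3EAP (-0.63) and TCOF1 (-0.29) at day 20, as was the pseudouridine synthase DKC1 at both (-0.29 and -0.36). MPHOSPH6 was higher at both days (0.50 and 0.75), DIS3L (-0.29), a cytoplasmic relative of DIS3, was lower at day 10 and ZFC3H1 (0.32), a cofactor of the nuclear exosome, was higher at day 20. Of 84 ribosomal protein genes 32 were higher and 1 lower at day 10, and 36 higher and 2 lower at day 20, with medians of 0.21 and 0.20, so this list and the 42 genes had medians of opposite sign. MYC did not pass (0.043 and -0.097), MXI1 was higher at both days (0.66 and 0.84) and MYCN lower at day 20 (-1.09). Of 12 proliferation markers 4 were lower at each day, among them CCNA2 (-0.54 and -0.43), BUB1 (-0.49 and -0.39) and MCM5 (-0.41 and -0.37). Mitochondrially encoded transcripts took 3.89 to 6.30% of counts in the 4 BT474 spheroid libraries, against 2.43 and 2.31% in monolayers. Their 13 genes had medians of 1.13 and 1.35, all positive and none called. The 5 leukocyte markers summed to 15.6 to 24.9 CPM in the 4 BT474 spheroid libraries, against 0.499 and 0.330 CPM in monolayers, nearly all of it LYZ, and PTPRC, the defining marker, was at 0 in all BT474 libraries. The part of proliferation and of mitochondrial transcripts in these values was not tested. With the HCC1806 monolayers added to the fit, 0 of the 42 genes were called at either day. This count and those that follow have no share of all genes beside them, so they are not a result about the 42 genes. At day 10, 6 were called without either monolayer library, 0 without either day 10 library and 1 without either day 20 library, and at day 20, 4 were called without day 20 replicate 1 and 2 without day 20 replicate 2.

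Between the lines as spheroids, HCC1806 over BT474, 10 of the 42 genes were higher and 15 lower at day 10, and 14 were higher and 15 lower at day 20. Of all genes 70.7% were called at day 10 (37.5% higher and 33.2% lower) and 71.3% at day 20 (37.7% higher and 33.6% lower), beside 25 and 29 of the 42. The 42 genes were thus called no more often than all genes. Directions were split among all genes too, so a split within a complex is not a trait of the 42 genes. Their medians were -0.18 and -0.037, against 0.077 and 0.089 for all genes. At day 10, 14 lay above and 22 below without overlap, against 45.4% and 41.7% of all genes, and at day 20 17 lay above and 20 below, against 45.3% and 41.2%.

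POLR1A was at 44.3 and 35.7 CPM in HCC1806 day 10 spheroids, against 137 and 163 CPM in BT474 day 10 spheroids, and at 53.5 and 43.4 CPM in HCC1806 day 20 spheroids, against 125 and 141 CPM in BT474. The groups lay far apart at both days (-1.90 ± 0.13, edgeR adjusted p = 3.1e-08 at day 10, and -1.44 ± 0.13, edgeR adjusted p = 4.39e-07 at day 20). POLR1D, of the same polymerase, went the opposite way (1.13 ± 0.084, edgeR adjusted p = 2.31e-08, and 1.05 ± 0.084, edgeR adjusted p = 5.54e-08). The exosome ring was split likewise: EXOSC8 was at 41.2 and 42.3 CPM in HCC1806 day 10 spheroids against 17.5 and 18.5 CPM in BT474, and at 41.7 and 43.9 CPM in HCC1806 day 20 spheroids against 17.2 and 17.4 CPM in BT474 (1.22 ± 0.11, edgeR adjusted p = 1.38e-07, and 1.32 ± 0.11, edgeR adjusted p = 6.94e-08). EXOSC5 was at 10.8 and 8.66 CPM in HCC1806 day 10 spheroids against 22.8 and 25.8 CPM in BT474, and at 10.01 and 10.1 CPM in HCC1806 day 20 spheroids against 22.2 and 25.7 CPM in BT474 (-1.32 ± 0.15, edgeR adjusted p = 1.8e-06, and -1.24 ± 0.15, edgeR adjusted p = 3.49e-06). None of these groups overlapped. EXOSC10 was higher in HCC1806 (0.52 and 0.60), EXOSC6 was lower (-0.86 and -0.87), and EXOSC3 did not pass (-0.27 and 0.037).

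Processome genes also differed in both directions. NOP9 was at 29.99 ± 1.70 CPM in HCC1806 and 79.7 ± 2.37 CPM in BT474 at day 10 (SD, n = 2 each; -1.40 ± 0.081, edgeR adjusted p = 1.56e-09), and had -1.30 at day 20. RRP36 was lower (-1.01 and -1.14), and UTP25 (1.16 and 1.27), UTP23 (1.24 and 1.09) and RRP7A (1.00 and 0.96) were higher. RRP12 was higher at day 20 (0.70 (edgeR adjusted p = 6.08e-05)) and had -0.072 (edgeR adjusted p = 0.572) at day 10. RRP9 (-0.61, called, and -0.52, called), UTP4 (-0.59, called, and -0.38, called) and UTP14C (-0.37, not called, and -0.18, not called) had negative values. UTP20 had -0.028 (not called) and 0.13 (not called), and UTP14A -0.017 (not called) and 0.28 (called). Among 60S genes NOP16 was at 8.94 and 9.41 CPM in HCC1806 day 10 spheroids against 24.6 and 26.7 CPM in BT474 (-1.48 ± 0.12, edgeR adjusted p = 7.38e-08; -0.80 at day 20), and NOP53 at 472 and 431 CPM against 172 and 186 CPM (1.34 ± 0.087, edgeR adjusted p = 5.51e-09; 1.13 at day 20). The pair thus differed in opposite directions, with no overlap in either gene at day 10. NOP56 was lower at both days (-0.62 and -0.25), while NOP58 (0.035, not called, and -0.032, not called), NOP10 (-0.079, not called, and -0.12, not called), POLR1B (-0.24, called, and -0.043, not called) and NOP2 (-0.75, not called, and -0.67, not called) were called lower at neither or at 1 day. MYC was higher in HCC1806 spheroids (1.03 and 1.28), as were MYCL (2.47 and 3.05) and MXI1 (1.93 and 2.197), while MYCN was lower, at 0.0933 and 0.131 CPM in HCC1806 and 4.95 and 4.71 CPM in BT474 at day 10 (-2.04 at day 20). The HCC1806 day 10 values of MYCN lie near the floor of 3 counts.

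Other pathway genes also differed in both directions. Of 13 further RNA polymerase I factors 7 were higher and 3 lower in HCC1806 at each day, led by TAF1A (2.86 and 2.87) and TAF1D (1.62 and 1.79), with RRN3 (-0.91), an initiation factor, next in size at day 10 and TTF1 (-0.98), the termination factor, at day 20. Of 44 other processome genes 16 were higher and 13 lower at day 10, and 19 and 12 at day 20. The largest were PWP2 (-4.29 and -2.72), the helicase DDX52 (-1.95 and -2.24), NOM1 at day 10 (-1.75) and the helicase DDX47 at day 20 (1.77). Of 51 other 60S genes 11 were higher and 21 lower at day 10, and 10 and 21 at day 20, led by EIF6 (-2.35 and -2.30), LAS1L (-1.48 and -1.59), RRS1 at day 10 (-1.61) and SDAD1 at day 20 (-1.28). Of 23 other snoRNP and modification genes 7 were higher and 10 lower at day 10, and 7 and 13 at day 20, led by TRMT112 (-2.198 and -2.13), a methyltransferase partner, ZNHIT3 (-2.10 and -2.31) and NSUN5 (-1.38 and -1.50). Of 22 exosome partners 10 were higher and 8 lower at each day, led by C1D (1.05 and 0.87), WDR61 (-1.04 and -0.90) and MPHOSPH6 (-0.91 and -0.98). Of 12 proliferation markers 5 were higher and 4 lower at day 10, and 2 and 8 at day 20, led by MKI67 (1.93 and 1.97) and TYMS (-0.84 and -1.13), with AURKB (0.77) next at day 10 and PCNA (-1.12) at day 20. Of 13 mitochondrially encoded genes 11 were lower at day 10 and 8 at day 20, led by MT-CO2 (-2.49 and -2.39), MT-CYB (-2.16 and -2.08) and MT-ND3 (-1.94 and -2.07), and the nuclear-retained MALAT1 was lower (-1.18 and -0.90). Their part in the results was not tested.

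Between monolayers in DMEM, CAL148 over BT474, edgeR called 0 of the 42 genes while it called 6.37% of all genes. At an unadjusted p under 0.05 there were 10 genes, and DESeq2 called 6, namely UTP25 and EXOSC8 as higher and UTP4, UTP23, RRP8 and RRP7A as lower. No share of all genes stands beside these counts or those of other settings below, so they are not a result about the 42 genes. Without overlap, 15 genes lay above and 17 below in CAL148, against 34.7% and 35.4% of all genes. UTP4 was at 30.5 and 27.8 CPM in CAL148 and 101 and 85.4 CPM in BT474 (-1.66 (edgeR adjusted p = 0.051)). UTP25 was at 73.6 and 59.6 CPM in CAL148 and 21.2 and 28.6 CPM in BT474 (1.44 (edgeR adjusted p = 0.0893)). The groups of both genes were far apart, in opposite directions. The other named genes had log2 fold changes of -0.47 (POLR1A), -1.53 (POLR1B), -0.13 (NOP56), 0.39 (NOP58), 0.11 (NOP10), -0.65 (NOP2), 1.10 (NOP53), 0.18 (RRP9) and 0.30 (RRP12). For UTP20 the value was -0.59, for UTP14A 0.69, for UTP14C -0.59, for EXOSC3 0.017, for EXOSC5 0.16 and for EXOSC10 0.29. POLR1B was at 22.3 and 27.5 CPM in CAL148 and 66.8 and 78.7 CPM in BT474, and POLR1A at 127 and 149 CPM and 183 and 204 CPM, both without overlap. Other pathway genes called were IMP4 (-2.13), DDX52 (-1.91), PWP2 (-2.76) and EIF6 (-2.37), all lower in CAL148, of which PWP2 and EIF6 were not called without either ZR-75-30 library, and MYC did not pass (0.88). The fit shares its spread with the HCC1806 and ZR-75-30 monolayers, and 7 of the 42 genes were called without either HCC1806 library, 0 without either ZR-75-30 library, 16 with voom quality weights and 12 with all 16 libraries.

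Between monolayers in RPMI, HCC1806 over ZR-75-30, 7 of the 42 genes were higher and none lower, with 20.5% of all genes called and 12.5% called higher, so the share was near the background. The median of the 42 genes was 0.35, against 0.19 for all genes. RRP7A was at 276 and 331 CPM in HCC1806, against 59.6 and 74.2 CPM in ZR-75-30 (2.24 ± 0.34, edgeR adjusted p = 0.0057). EXOSC8 was at 96.3 and 71.4 CPM in HCC1806, against 20.5 and 20.99 CPM in ZR-75-30 (2.08 ± 0.35, edgeR adjusted p = 0.00842). Both HCC1806 libraries lay above both ZR-75-30 libraries in each gene. POLR1E (1.95 ± 0.38, edgeR adjusted p = 0.0138), UTP4 (1.95 ± 0.40, edgeR adjusted p = 0.0157), EXOSC10 (1.79 ± 0.50, edgeR adjusted p = 0.0434), EXOSC3 (1.49 ± 0.41, edgeR adjusted p = 0.0389) and UTP6 (1.48 ± 0.34, edgeR adjusted p = 0.0215) made up the 7. Without overlap, 14 genes lay above and 5 below in HCC1806, against 28.3% and 25.1% of all genes. The other named genes had log2 fold changes of -0.36 (POLR1A), 0.50 (POLR1B), 0.28 (NOP56), 0.59 (NOP58), -0.18 (NOP10), 0.50 (NOP2), 0.37 (NOP53) and 0.23 (RRP9). For RRP12 the value was 0.61, for UTP20 1.84, for UTP14A 0.15, for UTP14C -0.79 and for EXOSC5 -0.81. MYC did not pass (-0.56) and MXD4 was lower in HCC1806 (-3.90). Of the RNA polymerase I factors MYBBP1A (2.11), TAF1D (1.87) and TTF1 (1.72) were the highest of 4 called. WDR43 (2.13) and WDR75 (1.86) of the processome, MAK16 (2.01), PELP1 (1.80) and NIP7 (1.44) of the 60S list and the snoRNP assembly factor RUVBL1 (1.20) were higher in HCC1806, and AATF (-1.89) and WDR61 (-1.58) lower. AURKB (2.99) and MCM5 (1.19) of the proliferation markers were higher and MALAT1 (-1.43) lower. With ZR-75-30 replicate 1 left out, no gene of these lists except MXD4 was called. With ZR-75-30 replicate 2 left out, MYBBP1A, TTF1, WDR43, WDR75, MAK16, PELP1, NIP7, RUVBL1, AATF, WDR61, AURKB, MCM5 and MALAT1 were not called either. EXOSC10 was at 0.99 and not called with HCC1806 replicate 2 left out, nor were WDR43 (0.80), WDR75 (1.08) and MALAT1 (-1.10). The counts that follow have no share of all genes beside them, so they are not a result about the 42 genes. Of the 7 genes, 6 were still called with either HCC1806 library left out, 0 with ZR-75-30 replicate 1 left out, and 1 (RRP7A) with ZR-75-30 replicate 2 left out; in all 11 genes were called without HCC1806 replicate 1 and 4 without any one BT474 or CAL148 library.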

How the data were processed

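The data are 16 poly(A)-selected RNA-seq libraries from 4 human breast cancer cell lines. Per the submitters' processing notes reads were processed with HISAT2 2.2.1 and featureCounts 2.0.6 on GRCh38. The deposited counts are whole numbers per gene, and the authors also deposited FPKM values (per length and depth), which served here for levels between genes and for 1 alternative. Whether counting used strand, and what was done with multi-mapping reads, is not given in the sources used here. Of 58735 genes 58724 matched GENCODE 29 by ID, symbol and position. Totals of 29.7 M to 72.5 M counts set the depth, and with 2 libraries per group the spread between libraries, not depth, limits precision.

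Counts were tested with edgeR 4.0.16 in R 4.3.3 (TMM scaling; a filterByExpr filter at count 10 and total 15; the robust quasi-likelihood test), and a gene was called at a Benjamini-Hochberg adjusted p under 0.05 over all genes tested. HCC1806 spheroids against monolayers and the line differences used all 12 libraries of both lines (20929 genes). The other spheroid comparisons used 10 libraries without the HCC1806 monolayers (20606 genes), and the monolayer comparisons used the 8 monolayer libraries (19594 genes). SE was taken as the log2 fold change over the square root of F. The scripts were tested on simulated data. CPM was computed on TMM-scaled library sizes over all 16 libraries, with 0.5 added for the heat map.

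Members, gene lists and fits were chosen with earlier results of these data known. Named in each comparison are 16 genes covering the roles, the 5 highest and 5 lowest log2 fold changes among called members, up to 3 called genes with the largest change from each list of pathway, MYC-related, proliferation, mitochondrially encoded and nuclear-retained genes, and MYC. Of the cell marker lists only ERBB2, the leukocyte sum, LYZ and PTPRC are given. NOP9 and NOP14 in HCC1806 spheroids against monolayers, RIOK3, RUVBL1 in the line difference and further members given with their values fell outside this rule and were chosen after their values were seen.

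Alternatives were RLE scaling, TMM without mitochondrially encoded genes, no filter, a stricter filter (50 counts in 2 libraries), DESeq2 1.42.0, limma 3.58.1 on log2(FPKM + 0.1), voom quality weights, all 16 libraries, the 12-library fit, BT474 alone, a replicate block and leaving out each library. A crossed replicate block, and group means and other lists without single HCC1806 or ZR-75-30 monolayer libraries, were chosen after seeing the data. Deviations of same-numbered libraries had small correlations, except -0.553 between HCC1806 and ZR-75-30 monolayers. These values cannot show whether same-numbered samples were handled together. Figures used matplotlib 3.10.9.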

Additional observations from a re-analysis of the deposited data

Results flagged for a closer look

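The spheroid effect differed between HCC1806 and BT474, by the test of the difference itself, for 3 genes at day 10 and 2 at day 20. Of all genes 1.35% were called at day 10 and 2.77% at day 20. EXOSC3, a cap subunit of the RNA exosome, differed by -1.58 on the log2 scale at day 10 and -1.27 at day 20. RRP7A, a processome protein, differed by -1.27 at day 10 and -1.31 at day 20, and NOP56, a box C/D snoRNP protein, by -1.24 at day 10. The change between day 10 and day 20 spheroids differed for RRP12, a 40S maturation factor, by 0.77, with both HCC1806 day 20 libraries above both day 10 libraries and both BT474 day 20 libraries below both day 10 libraries. For the change between days 2.67% of all genes were called. The differences over monolayers were lost with voom quality weights and with all 16 libraries. They were also lost with any one library outside the HCC1806 monolayers left out. The RRP12 difference was lost with all 16 libraries and with the HCC1806 monolayers added to the fit. It was also lost with some single spheroid libraries of either line left out, as listed above. No cause was tested.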

How the results depend on the processing

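Counts of the 42 genes called are given here where they changed by more than 1.5 times, without the share of all genes called in the same setting. The cause was not tested. HCC1806 day 10 over monolayers (17) had 0 with voom quality weights and 0 to 35 without single libraries. HCC1806 day 20 over monolayers (18) had 9 with all 16 libraries, 0 with voom weights and 1 to 33 without single libraries. The line difference at day 10 (3) had 6 with no filter, 18 with DESeq2, 0 with a replicate block, 0 with all 16 libraries, 0 with voom weights and 0 to 34 without single libraries. The line difference at day 20 (2) had 4 with no filter, 4 with the stricter filter, 15 with DESeq2, 6 with limma on FPKM, 1 with a replicate block, 0 with all 16 libraries, 0 with voom weights and 0 to 32 without single libraries. HCC1806 day 20 over day 10 (3) had 0 with all 16 libraries, 0 with the 12-library fit and 0 to 5 without single libraries. The line difference between days (1) had 3 with no filter, the stricter filter or DESeq2, 0 with all 16 libraries or the 12-library fit and 0 to 3 without single libraries. BT474 day 10 over monolayers (3) had 5 with no filter or DESeq2, 0 with all 16 libraries or the 12-library fit and 0 to 6 without single libraries. BT474 day 20 over monolayers (9) had 0 with all 16 libraries or the 12-library fit, and 2 to 4 without single day 20 libraries. HCC1806 over BT474 spheroids had 10 with all 16 libraries and 13 with the 12-library fit at day 10 (25), and 10 and 11 at day 20 (29). CAL148 over BT474 (0) had 1 with RLE, the stricter filter or limma, 3 with no filter, 6 with DESeq2, 12 with all 16 libraries, 16 with voom weights and 0 to 7 without single libraries. HCC1806 over ZR-75-30 (7) had 11 with DESeq2, 4 with a replicate block, 16 with all 16 libraries, 2 with voom weights and 0 to 11 without single libraries.

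Among the named genes, a sign turned with a call on either side only where an HCC1806 monolayer library was left out; other signs also turned, in values called under neither setting. Over single libraries left out, the day 10 and day 20 values over monolayers ran from -1.20 to 0.44 and -0.92 to 0.71 for POLR1A, -0.78 to 1.02 and -0.67 to 1.12 for POLR1B, -1.69 to 0.87 and -1.83 to 0.73 for NOP53, -1.74 to 1.17 and -1.59 to 1.32 for UTP20, and -0.90 to 0.46 and -0.92 to 0.44 for EXOSC10. The line difference ran from -0.85 to 0.80 for POLR1A and -0.45 to 1.36 for POLR1B at day 10, and at day 10 and day 20 from -1.84 to 0.71 and -2.06 to 0.52 for NOP53, -1.60 to 1.32 and -1.42 to 1.48 for UTP20 and -0.71 to 0.67 and -0.60 to 0.75 for EXOSC10. NOP53 in HCC1806 over ZR-75-30 ran from -1.55 to 1.13.

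Same-numbered libraries had correlations of their deviations within 0.17 of 0, except -0.553 between HCC1806 and ZR-75-30 monolayers. A replicate block gave 15 calls for HCC1806 day 10 and 17 for day 20 over monolayers, 3 and 8 for BT474, 24 and 27 for HCC1806 over BT474 and, as above, 0 and 1 for the line differences and 4 for HCC1806 over ZR-75-30. The crossed replicate block gave 16 for HCC1806 day 20 over monolayers and 7 for HCC1806 over ZR-75-30. At 2 libraries per group, the HCC1806 and ZR-75-30 monolayer spread limits the results that use them.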
